A study of Mus musculus with 23 samples.

Results

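The genes described here encode the nuclear subunits of respiratory complexes I to IV, measured in the livers of P2ry13 knockout (KO) and wild-type (WT) mice of both sexes. A gene was taken as a member when the platform annotation gave its probe set a single symbol of the Ndufa, Ndufb, Ndufc, Ndufs or Ndufv series, of the Uqcr series, of Sdha to Sdhd, or of Cox4 to Cox8. Assembly factors and pseudogene names were barred, which left out 1 symbol, and each gene is represented by its brightest probe set. This gave 53 members among the 19147 genes named on the array, namely 26 of complex I, 4 of complex II, 7 of complex III and 16 of complex IV by symbol. P2ry13, also called GPR86, is a receptor for ADP, and the KO was ablated for it. Allele, strain, age and diet were not stated in the labels read here. The groups were 6 female WT, 6 female KO, 5 male WT and 6 male KO livers, with 1 array per animal, and the male WT arrays are numbered 2 to 6. The P2ry13 probe set read lower in KO than in WT, by log2 differences of -1.12 in females and -0.80 in males. In whole liver, fewer cells of a type and less RNA per cell cannot be told apart.

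The respiratory chain passes electrons from NADH and succinate to oxygen and pumps protons across the inner mitochondrial membrane. Complex I, the NADH dehydrogenase, and complex II, succinate dehydrogenase of the citrate cycle, both feed ubiquinone. Complex III passes the electrons on to cytochrome c, and complex IV, cytochrome c oxidase, reduces oxygen. Some subunits are encoded in mitochondrial DNA and the others in the nucleus. Several complex IV subunits have tissue isoforms: Cox6a1 and Cox8a are the forms of liver and most other tissues, Cox6a2, Cox7a1 and Cox8b those of heart and skeletal muscle, Cox4i2 that of lung, and Cox8c and Cox6b2 are known from testis. The hepatocyte is rich in mitochondria, which serve fatty acid oxidation, urea synthesis and gluconeogenesis. Ndufa4 carries a complex I name but is now assigned to complex IV; it is counted under its symbol here, as is its paralogue Ndufa4l2.

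The promoters of 4 of the 5 subunits that differed between the sexes are shown first, with those of the isoform pair Cox8a and Cox8b, so that a reader can see how unlike they are. They are RefSeq windows of assembly GRCm38.p6, from 250 bases before to 50 bases after the annotated start, written in the direction of the gene. The motifs searched on both strands, in capitals, were the palindromic NRF1 consensus with 1 free base, whose letters are the capitals of that motif in Cox6a1, CCGGAAG (the ETS family, including GABPA), ATGGCGGC (YY1), GGGCGG (SP1), TATAAA (the TATA box) and CCAAT. The windows lie at chr6:11907401-11907700 (minus strand) for Ndufa4, chr5:115348909-115349208 (minus) for Cox6a1, chr10:94198785-94199084 (plus) for Ndufa12, chr13:114388045-114388344 (minus) for Ndufs4, chr19:7217567-7217866 (minus) for Cox8a and chr7:140900397-140900696 (minus) for Cox8b.
Ndufa4: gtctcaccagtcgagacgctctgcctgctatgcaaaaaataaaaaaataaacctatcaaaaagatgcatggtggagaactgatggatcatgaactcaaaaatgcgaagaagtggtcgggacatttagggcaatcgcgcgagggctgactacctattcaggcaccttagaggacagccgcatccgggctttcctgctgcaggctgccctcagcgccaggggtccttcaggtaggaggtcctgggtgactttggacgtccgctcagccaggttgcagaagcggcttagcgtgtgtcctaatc
Cox6a1: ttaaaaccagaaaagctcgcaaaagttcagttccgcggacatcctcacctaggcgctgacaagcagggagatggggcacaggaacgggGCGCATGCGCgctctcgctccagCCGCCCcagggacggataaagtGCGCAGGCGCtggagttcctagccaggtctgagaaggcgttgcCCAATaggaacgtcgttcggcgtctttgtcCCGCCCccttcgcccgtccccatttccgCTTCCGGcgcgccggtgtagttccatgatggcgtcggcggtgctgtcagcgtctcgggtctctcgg
Ndufa12: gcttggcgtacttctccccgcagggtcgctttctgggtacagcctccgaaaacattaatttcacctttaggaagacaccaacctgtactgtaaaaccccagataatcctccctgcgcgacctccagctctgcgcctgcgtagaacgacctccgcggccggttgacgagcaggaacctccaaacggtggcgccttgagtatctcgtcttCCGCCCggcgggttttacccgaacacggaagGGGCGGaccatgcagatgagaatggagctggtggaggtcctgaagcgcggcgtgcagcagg
Ndufs4: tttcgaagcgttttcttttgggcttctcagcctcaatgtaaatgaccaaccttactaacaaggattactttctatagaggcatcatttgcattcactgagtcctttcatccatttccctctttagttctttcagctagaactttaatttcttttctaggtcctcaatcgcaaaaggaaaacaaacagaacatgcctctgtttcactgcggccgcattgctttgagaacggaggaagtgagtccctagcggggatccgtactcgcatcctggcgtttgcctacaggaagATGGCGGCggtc
Cox8a: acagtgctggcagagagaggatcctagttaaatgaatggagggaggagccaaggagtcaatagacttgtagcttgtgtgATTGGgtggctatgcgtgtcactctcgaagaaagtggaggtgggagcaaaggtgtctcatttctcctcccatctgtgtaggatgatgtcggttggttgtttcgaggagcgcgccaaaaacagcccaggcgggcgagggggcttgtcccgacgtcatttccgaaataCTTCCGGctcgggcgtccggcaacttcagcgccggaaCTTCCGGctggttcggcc
Cox8b: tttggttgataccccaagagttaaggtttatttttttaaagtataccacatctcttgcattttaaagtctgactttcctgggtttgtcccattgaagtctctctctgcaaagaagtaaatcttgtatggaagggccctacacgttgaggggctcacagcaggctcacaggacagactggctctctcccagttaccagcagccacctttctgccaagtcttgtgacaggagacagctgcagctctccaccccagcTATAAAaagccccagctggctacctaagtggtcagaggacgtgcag
Cox6a1 held 6 matches, of which 2 were of NRF1, 2 of SP1, 1 of ETS and 1 of CCAAT. Ndufa12 held 2 of SP1, Ndufs4 held 1 of YY1, and Ndufa4 held none of these letters. Cox8a held 2 matches of ETS and 1 of CCAAT. Its muscle counterpart Cox8b held the TATA letters, beginning 4 bases after the annotated start, and none of the others. Of the 4 windows of subunits lower in females, those of Cox6a1 and Ndufa12 shared the SP1 letters, and no letters were common to all 4.

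RefSeq windows were found for 40 of the 53 members, 41 windows in all. The NRF1 letters stood in 8 of them (19.5%), against 4.60% of all 32851 windows of the table. The ETS letters stood in 10 (24.4%), against 8.86% of all windows, and those of YY1 in 3 (7.32%), against 2.24%. SP1 matched 18 (43.9%) against 35.7%, CCAAT 18 (43.9%) against 37.4%, and the TATA letters 3 (7.32%) against 13.6%. NRF1 and the ETS factor GABPA are known activators of nuclear genes for mitochondrial proteins. A match is a description of these letters and not a site bound in these livers.

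Values are RMA intensities, given here on the log2 scale. Probe sets of Y-linked genes on the female arrays show what a probe set can read without its transcript. The highest of 16 such probe sets, that of Ssty2, read 6.96, and the others read at most 4.42 (Uba1y). With 6.96 as the bound, 41 members lay above it, with means from 7.33 to 13.04, and 12 did not. Levels of different probe sets cannot be set against each other, so no order among subunits is drawn. The 12 were Ndufa11b, Ndufa13, Ndufa4l2, Cox4i2, Cox6a2, Cox6b2, Cox7a1, Cox7a2, Cox7b, Cox7b2, Cox8b and Cox8c. Of these, Ndufa13, Ndufa4l2, Cox6a2, Cox7a1, Cox8b and Cox8c had means between 4.42 and 6.96, so that Ssty2 alone places them below the bound. Most isoforms of other tissues are among them, as are Cox7a2, Cox7b and Ndufa13, subunits that liver is known to use. Cox7a2, Cox7b and Cox7b2 even lay within the range of 2.53 to 3.69 that 4 male-specific probe sets took on female arrays, so these probe sets gave no usable reading. Among the 41 brighter members, the SD within groups lay between 0.04 and 0.17, with a median of 0.09. Array medians of linear intensity lay between 19.5 and 21.1. The hepatocyte markers Alb, Apob, Tat and Ttr read above the Y-linked bound on all 23 arrays, with Alb between 14.65 and 14.80, and 0 of 4 passed between the sexes.

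No subunit passed the test for the loss of P2ry13. In females, 0 of 53 members passed (limma, adjusted p under 0.05), where 0.0547% of all probe sets did. None had an unadjusted p under 0.05, and the smallest adjusted p of limma was 0.883. The log2 differences, KO minus WT, lay between -0.11 and 0.13 with a median of 0.01, against a median of 0.00 over all named genes, and 24 of 53 were negative. For 48 of 53 members the 95% interval stayed within a change of 20% in either direction, and for the 41 brighter ones this held for 39. KO and WT arrays of females were fully apart for 0 of 53 members, against 0.229% of all probe sets. The 3 smallest p-values belonged to the complex I subunits Ndufv3, at 0.11 (SE 0.07), and Ndufa5, at 0.13 (SE 0.08), and to Cox8c, at -0.11 (SE 0.08). Ndufv3 read 7.28, 7.38 and 7.40 (lowest, median, highest) in female WT and 7.26, 7.48 and 7.64 in female KO, and Ndufa5 read 6.82, 7.25 and 7.50 against 7.32, 7.36 and 7.45, so that both overlapped. Without female WT replicate 6, the lowest array, Ndufa5 was at 0.04, and without the 3 muscle-marker arrays at 0.21. The split of directions in females depended on scaling and on single arrays: 31 members were negative after quantile normalization and 16 with equal array medians. Without the 3 arrays with skeletal muscle markers described further on, 17 were negative with a median of 0.03. It was 13 without female WT replicate 1, and 32 without female KO replicate 5 or without female WT replicate 6.

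In males, 0 of 53 members passed as well, where 0.0313% of probe sets did, and the smallest adjusted p of limma was 0.789. The median log2 difference was -0.06, with a range from -0.18 to 0.08, and 41 of 53 members were negative, as were 42 after quantile normalization and 40 with equal array medians. Without male WT replicate 2, the array with the highest mean of every complex, 40 of 53 were negative and the median was -0.03. Of the 41 brighter members, 87.8% were negative, against 48.0% of all 5249 named genes of that brightness. For 40 of 53 members the 95% interval stayed within a change of 20%, and the groups of 0 of 53 were fully apart, against 0.555% of all probe sets. Members with an unadjusted p under 0.05 were 2, Ndufb2 and Ndufc1, both accessory subunits of the membrane arm of complex I. Ndufb2 read 10.66, 10.71 and 10.83 (lowest, median, highest) in male KO, and 10.74, 10.78, 10.92, 10.97 and 11.15 in male WT. The groups overlapped, and the log2 difference of -0.18 (SE 0.08) had an adjusted p of 0.789 by limma. Ndufc1, placed on chromosome 3 like P2ry13, read 10.76, 10.83 and 10.87 in male KO and 10.82, 10.90, 10.95, 11.04 and 11.14 in male WT, a log2 difference of -0.15 (SE 0.07, adjusted p 0.795 by limma). Ndufb5, the other member on that chromosome, differed by -0.05 in males and 0.04 in females.

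**Figure D1:**
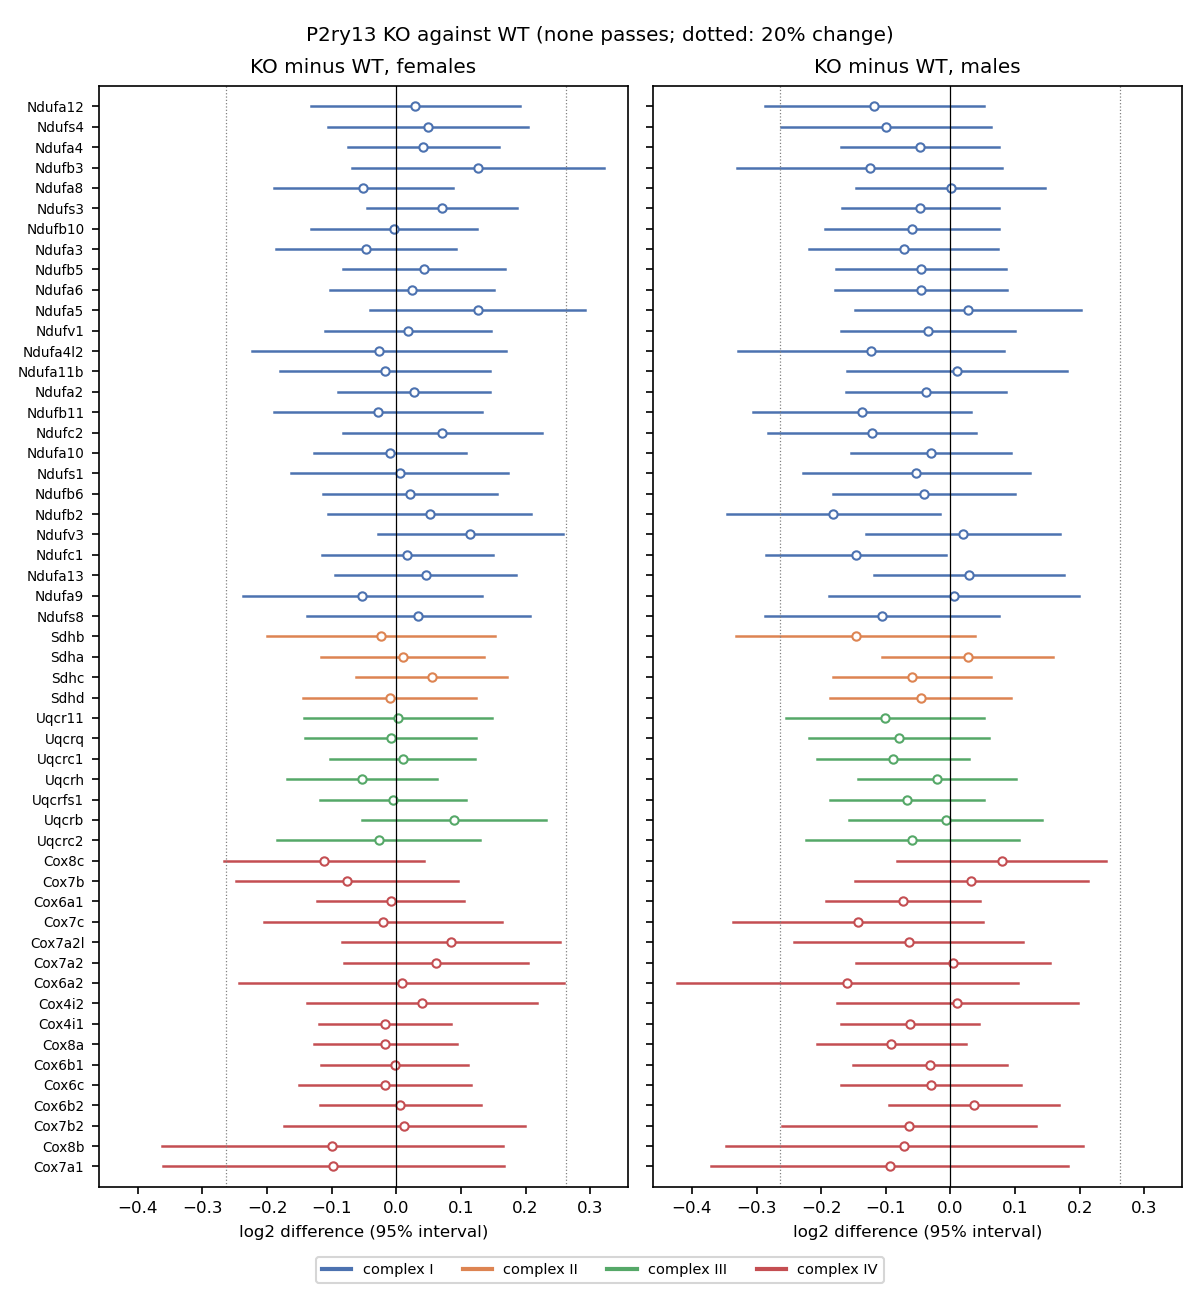
KO minus WT log2 differences (x axis) of the 53 members (y axis) in females, left, and males, right, with 95% intervals from limma and colours for the complexes; dotted lines mark a change of 20%. None passes, and 41 of 53 male differences lie below 0 against 24 of 53 in females.

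Averaged over the sexes, 0 of 53 members passed where 0.0808% of probe sets did, with a median log2 difference of -0.03, a range from -0.10 to 0.08 and 42 of 53 negative. The median was -0.01, with 34 negative, with equal array medians, and -0.01, with 32 negative, without the 3 muscle-marker arrays. Without male WT replicate 2 it was -0.02, with 34 negative. None had an unadjusted p under 0.05. The smallest adjusted p of limma was 0.795, for Ndufb11, an X-linked subunit of complex I, at -0.08 (SE 0.06). Without male WT replicate 2 it was at -0.04 on average, and at -0.06 instead of -0.14 in males. Cox8a differed by -0.05 (SE 0.04) and Ndufc1 by -0.06 (SE 0.05). The test of whether the KO effect differed between the sexes called 0 of 53 members, where 0.0104% of probe sets were called. Females minus males, 43 of 53 of these differences were positive, with a median of 0.07, against 0.01 over all named genes. The largest were Ndufb3 at 0.25 (SE 0.14) and Ndufb2 at 0.23 (SE 0.11), and Ndufc2 was at 0.19 (SE 0.11); Ndufb2 alone had an unadjusted p under 0.05, and its adjusted p by limma was 0.962. The female and male KO effects of the complexes, as medians, were 0.03 and -0.05 for complex I, 0.00 and -0.05 for complex II, -0.01 and -0.07 for complex III, and -0.01 and -0.06 for complex IV. Without male WT replicate 2 the male medians were -0.03 for complexes II and III and -0.02 for complex IV, without male WT replicate 3 that of complex III was -0.04, and without male WT replicate 5 that of complex I was -0.08. The female medians of all 4 complexes changed sign when single arrays were left out, within -0.03 to 0.04. All 7 members of complex III were negative in males, against 4 of 7 in females. The medians of complex IV include its dim members, which are most of that complex.

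Given whatever their result are 8 chosen subunits of complexes I to III. They are not a full list of core subunits, and Ndufs3 and Uqcrc2, given further on, are outside it. Sdha, the flavoprotein of complex II, differed by 0.01 in females and 0.03 in males, KO minus WT, and its iron-sulfur partner Sdhb by -0.02 and -0.15. The membrane anchors Sdhc and Sdhd differed by 0.05 and -0.01 in females and by -0.06 and -0.05 in males. In the matrix arm of complex I, Ndufs1, which carries iron-sulfur clusters, differed by 0.01 and -0.05 and Ndufv1, which binds NADH, by 0.02 and -0.03. Uqcrfs1, the Rieske iron-sulfur protein of complex III, differed by -0.01 and -0.07, and the core protein Uqcrc1 by 0.01 and -0.09. None of these 8 members had an unadjusted p under 0.05 in either sex.

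Between the sexes, 4 subunits that read above the Y-linked bound were lower in females and 0 were higher, and the dim probe set of Cox8c was called lower too. Averaged over genotypes, 5 of 53 members (9.43%) passed (limma, adjusted p under 0.05), where 10.5% of all probe sets passed 5.96% as higher and 4.55% as lower in females. Among the 41 brighter members 4 passed (9.76%), against 23.4% of all named genes of that brightness; as lower in females, 8.67% of those genes passed. The 4 were Ndufa4, Cox6a1, Ndufa12 and Ndufs4, at 1.11-fold to 1.14-fold lower. Across all members, 41 of 53 differences were negative with a median of -0.06, against 53.6% and -0.01 over all named genes; with equal array medians it was 36 of 53 and -0.04, where the median over all probe sets was 0.01. Of the 41 brighter members, 78.0% were negative, against 44.1% of all named genes of that brightness. By complex, 20 of 26 members of complex I, 3 of 4 of complex II, 4 of 7 of complex III and 14 of 16 of complex IV were negative, with medians of -0.05, -0.04, -0.01 and -0.07. Most of the 16 members of complex IV did not read above the Y-linked bound, so its count and median include many dim probe sets. Those above it were Cox4i1, Cox6a1, Cox6b1, Cox6c, Cox7a2l, Cox7c and Cox8a. All of these had lower means in females than in males in both genotypes. The positive differences of complex IV, of Cox7a1 and Cox8b, came from dim probe sets.

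**Figure D2:**
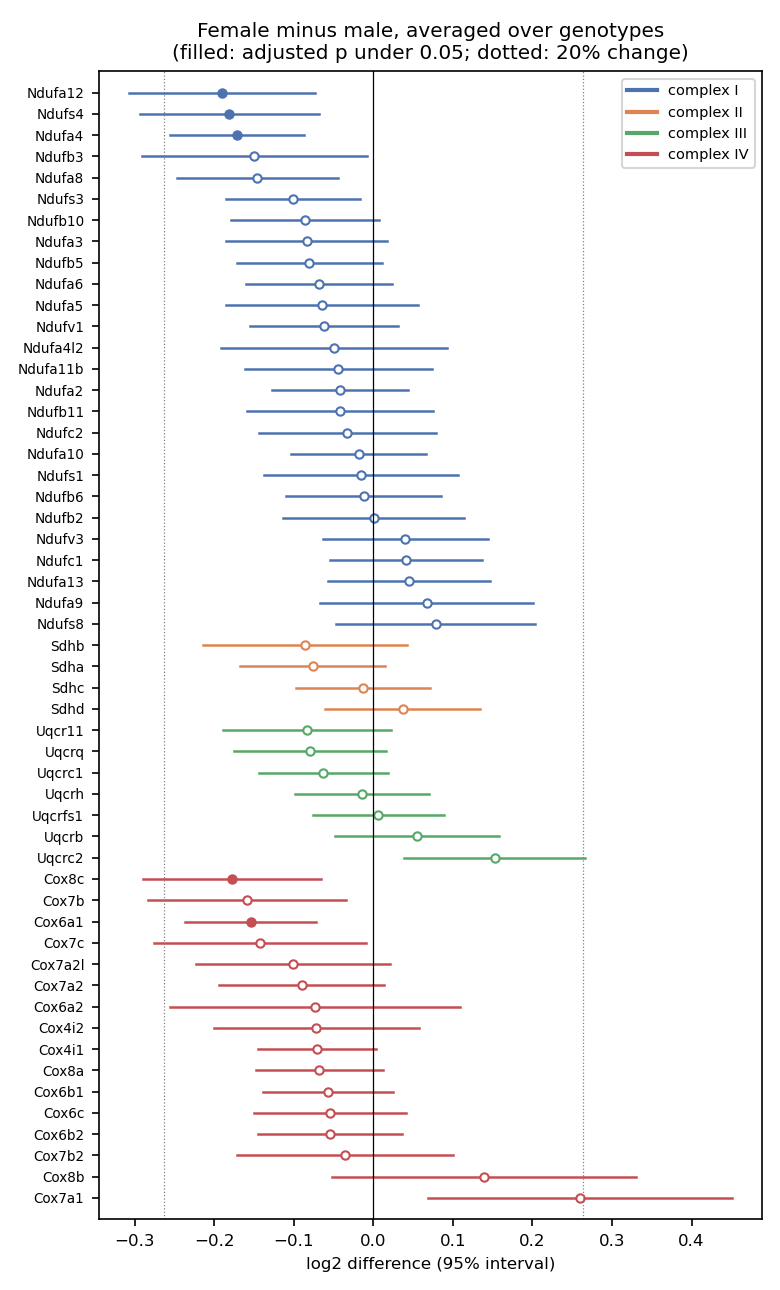
Female minus male log2 differences averaged over genotypes (x axis) for the 53 members (y axis), ordered within each complex, with 95% intervals from limma; filled points have an adjusted p under 0.05. The 5 filled points lie between -0.19 and -0.15, and 41 of 53 points lie below 0.

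Ndufa4 read 11.17, 11.24 and 11.30 (lowest, median, highest) in female WT and 11.23, 11.29 and 11.34 in female KO. It read 11.31, 11.40, 11.48, 11.52 and 11.57 in male WT and 11.35, 11.38 and 11.55 in male KO. Males were higher in both genotypes, without overlap between the sexes within WT or within KO. The log2 difference was -0.17 (SE 0.04), or 1.13-fold lower in females, with an adjusted p of 0.00596 by limma. It was the member that passed within WT alone, at -0.22 (SE 0.06, adjusted p 0.0355 by limma), where 1 of 53 members and 4.25% of probe sets passed; within KO it was -0.13 (SE 0.06, adjusted p 0.253 by limma). The call within WT was lost (adjusted p up to 0.108) without any 1 of female WT replicates 3, 4, 5 and 6 and male WT replicates 2, 3 and 4. In the F test over the 4 groups, Ndufa4 was the 1 member of 53 that passed (adjusted p 0.046 by limma), where 6.49% of probe sets did. That call held in 3 of 23 fits that left out 1 array each.

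Cox6a1, the subunit VIa isoform of liver, read 12.23, 12.36 and 12.37 in female WT and 12.20, 12.32 and 12.43 in female KO. In males it read 12.44, 12.46, 12.51, 12.57 and 12.59 in WT and 12.38, 12.45 and 12.47 in KO. The WT sexes were apart and the KO sexes overlapped, and the log2 difference was -0.15 (SE 0.04, adjusted p 0.0113 by limma). Both Ndufa4 and Cox6a1 stayed called in each of the 23 fits that left out 1 array, and their highest adjusted p over all alternatives with adjustment was 0.0313 and 0.0498.

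Ndufa12, an accessory subunit of the matrix arm of complex I, read 11.00, 11.32 and 11.42 in female WT, 11.18, 11.29 and 11.53 in female KO, and 11.35, 11.38 and 11.58 in male KO. Male WT arrays read 11.40, 11.45, 11.52, 11.60 and 11.76. The sexes overlapped in both genotypes, with a log2 difference of -0.19 (SE 0.06, adjusted p 0.0301 by limma). The call was lost (adjusted p up to 0.0698) without any 1 of female KO replicates 4, 5 and 6, male KO replicates 5 and 6, female WT replicate 6 and male WT replicates 2 and 4. It was also lost with equal array medians (0.0592), with array weights (0.0554) and without the 3 muscle-marker arrays (0.0541).

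Ndufs4, a complex I subunit whose loss in people and mice is known to cause Leigh syndrome, read 9.54, 9.82 and 9.99 in female WT, 9.69, 9.84 and 9.98 in female KO, and 9.91, 9.94 and 10.03 in male KO. Male WT arrays read 9.86, 9.95, 10.13, 10.14 and 10.22. The log2 difference was -0.18 (SE 0.05, adjusted p 0.0313 by limma). Its 2 dimmer probe sets, which did not exceed the Y-linked bound, differed by 0.08 and -0.04, and with the mean of all 3 the adjusted p was 0.668. The call was lost (adjusted p up to 0.068) without any 1 of female KO replicate 3, male KO replicate 5, female WT replicate 6 and male WT replicates 2, 3 and 4. It was also lost with equal array medians (adjusted p 0.0877 by limma).

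Cox8c passed in the range where a probe set can read without its transcript, so the reading cannot be told apart from signal of other origin. It read 5.56, 5.72 and 5.77 in female WT, 5.47, 5.57 and 5.70 in female KO and 5.66, 5.81 and 6.07 in male KO. Male WT arrays read 5.55, 5.75, 5.80, 5.88 and 5.91. The log2 difference was -0.18 (SE 0.05, adjusted p 0.0344 by limma), and the call was lost without any 1 of 10 arrays (adjusted p up to 0.0711). These were female KO replicates 4, 5 and 6, male KO replicates 4 and 6, female WT replicates 1 and 3 and male WT replicates 3, 5 and 6. Within KO it was the 1 member of 53 that passed, at -0.27 (SE 0.08, adjusted p 0.0302 by limma), where 4.85% of probe sets passed; the next by p were Cox7b, whose probe set gave no usable reading, at -0.21, and Ndufa8 at -0.17. This call too was lost (adjusted p up to 0.0917) without any 1 of those 5 KO arrays.

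**Figure D3:**
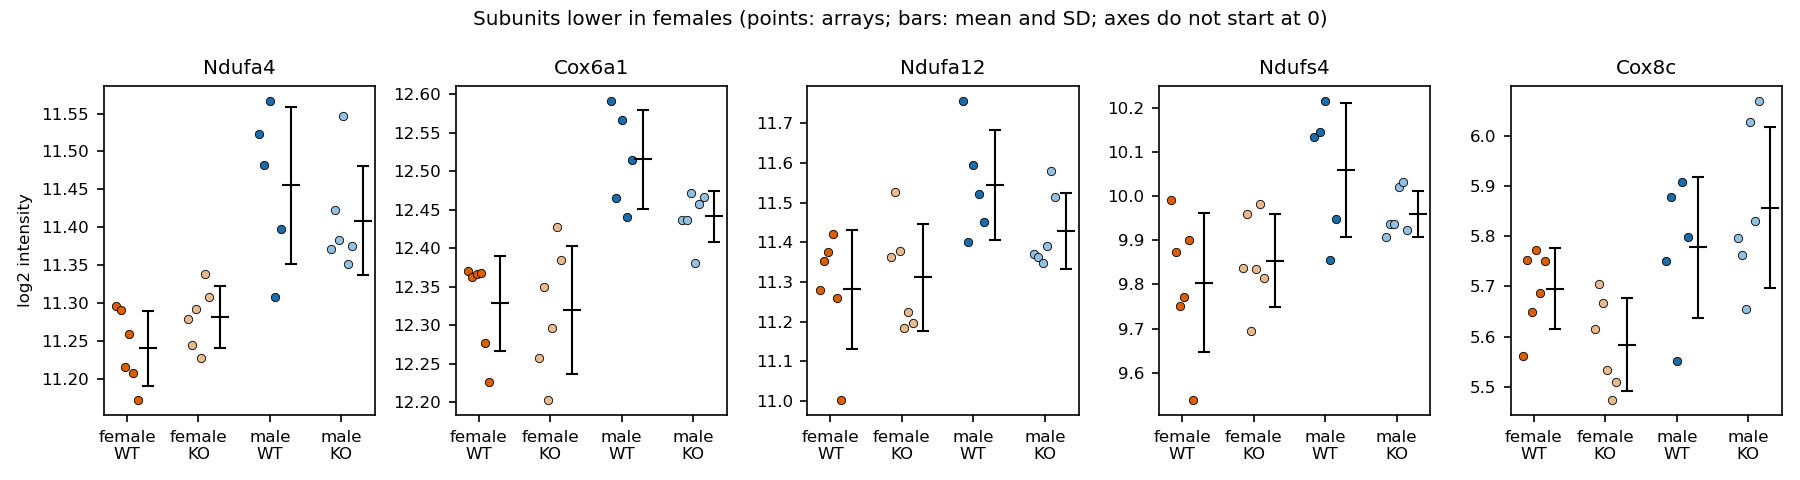
Log2 intensity (y axis) of the 5 members that passed between the sexes, by group (x axis), with 1 point per array and the mean and SD beside them. Ndufa4 shows no overlap between the sexes within a genotype, while the other 4 panels overlap in at least 1 genotype.

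Other members came close without passing. Ndufa8, an accessory complex I subunit, was at -0.15 (SE 0.05, adjusted p 0.0567 by limma). Uqcrc2, a core protein of complex III, ran the other way at 0.15 (SE 0.06, adjusted p 0.0804 by limma), with 5 female arrays above every male array. In WT the groups of 5 members (9.43%) did not overlap between the sexes, against 3.86% of all probe sets. They were Ndufa4, Cox6a1, Ndufs3, Cox4i1 and Cox8a, all lower in females. All 5 read above the Y-linked bound, and the share without overlap was not taken among named genes of that brightness. Calls within WT were commoner among those genes, at 11.0%, against 4.25% of all probe sets. Ndufs3, a core subunit of complex I, read 11.13, 11.23 and 11.32 in female WT and between 11.36 and 11.44 in male WT. Cox4i1, the liver isoform of subunit IV, read 12.85, 12.91 and 12.93 in female WT and between 12.95 and 13.07 in male WT, and Cox8a 10.99, 11.02 and 11.04 against 11.05 to 11.20. In KO the groups of 1 member, Ndufa4, did not overlap (1.89%), against 3.38% of all probe sets. Probe sets of 1 gene could disagree in sign: Sdha was at -0.08 with its brightest probe set and 0.03 with another bright one, and Uqcrq, a small subunit of complex III, at -0.08 and, with a dim one, 0.07. None of these passed.

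Some markers of other cells differed between the sexes. All 6 Kupffer cell markers, Adgre1, Cd5l, Clec4f, Marco, Timd4 and Vsig4, were higher in females, with a median log2 difference of 0.58. Their summed linear intensity ranged from 3658 to 4386 in female WT, 3810 to 4942 in female KO, 2648 to 3419 in male WT and 2617 to 3567 in male KO. Of the sinusoidal endothelial markers, 3 of 5 were higher in females, and the summed intensity ranged from 2515 to 2833 in female WT, 2339 to 2710 in female KO, 2086 to 2405 in male WT and 2130 to 2323 in male KO. Of the stellate cell markers 1 of 5 was higher, and of the hepatocyte markers 0 of 4 passed. Single genes of other lists were lower in females, and a single gene does not show that its cell type differed. The erythroid gene Alas2, the 1 gene of its list that was measured, was at -2.74, and Elovl3, of 3 brown fat genes, was at -4.80. Elovl3 read 10.28 to 10.75 in males, where the other brown fat genes, Ucp1 and Cidea, read 3.69 to 4.29 and 3.19 to 4.05. Sox9, of 4 bile duct genes, was at -0.34, and Prm1, of 4 male germ cell genes, was at -0.19. Sox9 and Prm1 read below the Y-linked bound of 6.96 on every array, and no other gene of these lists was called. The part of all these markers in the sex differences of the subunits was not tested.

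Subunits also varied together from animal to animal within groups. Female WT replicate 6 had 4 of the 41 brighter members above its group mean (9.76%), against 36.6% of all named genes of that brightness. Male WT replicate 5 also had 4 of 41, against 39.1%, and female KO replicate 3 had 3 of 41 (7.32%), against 29.8%. At the other end, female KO replicate 5 had 38 of 41 (92.7%) above it, against 78.5%, female WT replicate 1 had 36 (87.8%), against 48.9%, and male WT replicate 2 had 33 (80.5%), against 45.5%. The mean over complex I, centred for each gene on its mean over all arrays, spanned -0.17 to 0.04 in female WT, -0.09 to 0.08 in female KO, -0.06 to 0.14 in male WT and -0.04 to 0.05 in male KO. The group means were -0.04, -0.01, 0.06 and 0.00 in that order, so arrays of different groups overlapped. Complex IV means spanned -0.10 to 0.09, -0.07 to 0.01, 0.02 to 0.15 and -0.01 to 0.03. These means include the dim members, which are most of that complex.

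**Figure D4:**
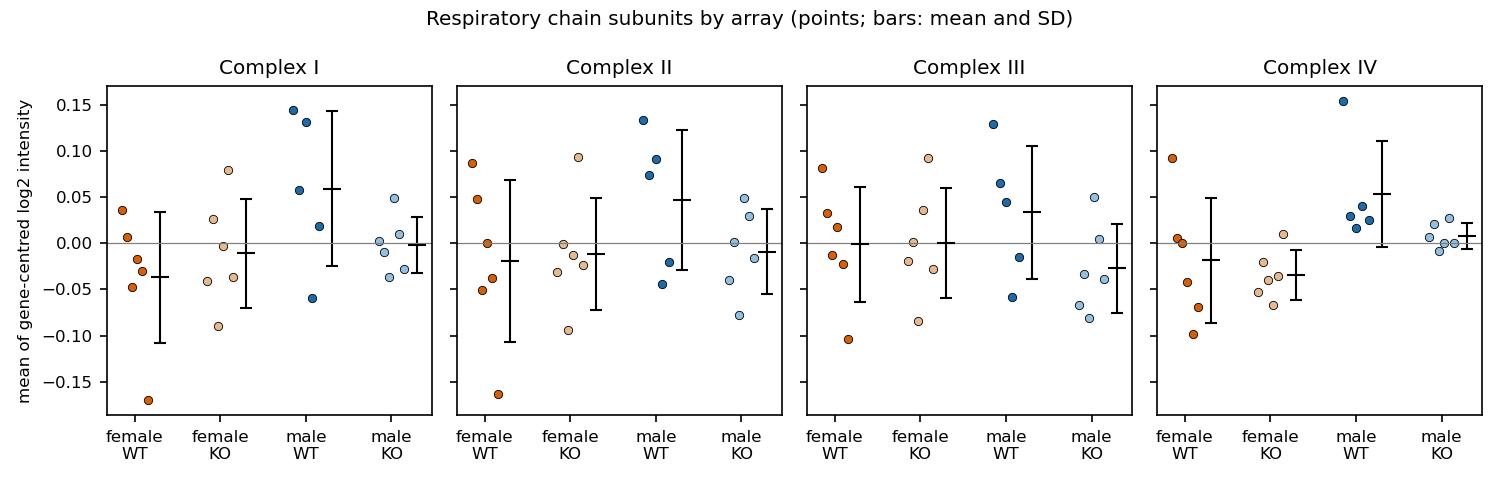
Mean gene-centred log2 intensity of the members of complexes I to IV (panels, y axis) by group (x axis), with 1 point per array and the group mean and SD. All members count alike, and most of those of complex IV are dim. Female WT replicate 6 is the lowest point for complexes I, II and III, at -0.17, -0.16 and -0.10, and male WT replicate 2 the highest for all 4, at 0.14, 0.13, 0.13 and 0.15.

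The isoforms of other tissues were read with attention to traces of those tissues. The skeletal muscle actin Acta1 read 9.97 in female KO replicate 6, 8.96 in female WT replicate 1 and 7.67 in female WT replicate 4, against 5.42 to 6.27 on the other 20 arrays. Of the 6 skeletal muscle markers, Tnnt3, Ckm and Mylpf were also higher on these 3 arrays than on the other 20, while Pvalb and Myh4 overlapped with them. The summed intensity of the list reached 867 in female WT and 1570 in female KO, against 211 in male WT and 193 in male KO. Cox8b was highest on the same arrays, at 6.20, 5.80 and 5.75, with 5.10 to 5.72 on the others. Cox6a2 read 6.52, 6.19 and 5.77 there, against 5.54 to 6.22, and Cox7a1 read 5.67, 6.13 and 5.31, against 4.80 to 5.84. The higher value of 5.84 was that of female WT replicate 3, which read 5.65 for Ucp1, the uncoupling protein of brown fat, where all other arrays read 3.69 to 4.29. Cidea, another brown fat gene, read 3.92 on that array, within the range of the others.

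**Figure D5:**
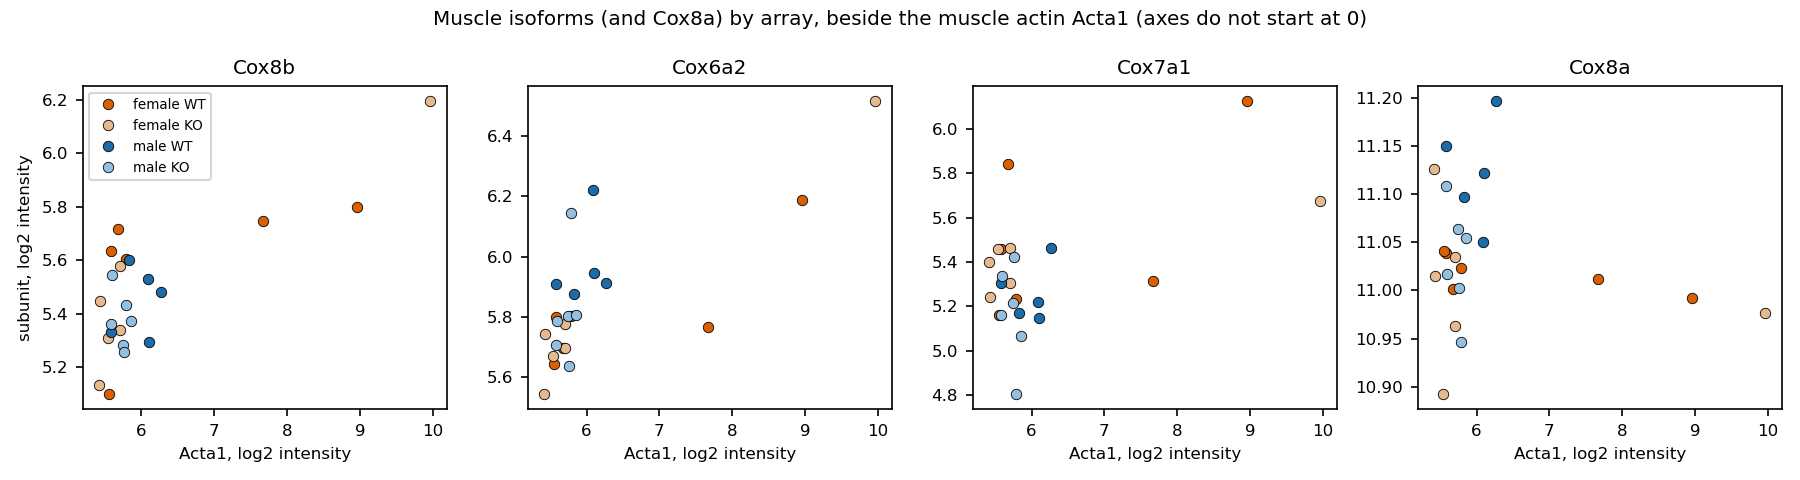
Log2 intensity of the muscle isoforms Cox8b, Cox6a2 and Cox7a1 and of Cox8a (y axes) beside that of the muscle actin Acta1 (x axes), with 1 point per array coloured by group. The 3 arrays with Acta1 at 7.67 or more hold the highest Cox8b values, and their Cox8a values, 10.98 to 11.01, lie within the range of the other arrays.

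The remaining isoforms showed no call in any comparison. Cox6b1, the form of liver and most tissues, read 11.62 ± 0.04 (SD, n = 6) in female WT, 11.61 ± 0.07 in female KO, 11.69 ± 0.09 (n = 5) in male WT and 11.66 ± 0.05 in male KO, and its testis counterpart Cox6b2 lay in the dim range at group means of 4.36 to 4.44. Cox7a2l, known for its part in joining complexes III and IV into supercomplexes, was at -0.10 (SE 0.06) between the sexes, with a KO difference of 0.08 in females and -0.06 in males. Cox4i2 and Ndufa4l2, forms known to respond to low oxygen, were in the dim range, and their KO differences were 0.04 and -0.03 in females and 0.01 and -0.12 in males. Cox7a2 and Cox7b2 gave group means of 2.61 to 2.73 and 2.63 to 2.70.

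The 3 arrays with muscle markers touch the sex comparison and the KO comparison in females, since all 3 are female. With all arrays, Cox7a1 was at 0.26 between the sexes (SE 0.09, adjusted p 0.0763 by limma) and Cox8b at 0.14. Without the 3 arrays, Cox7a1 was at 0.19 (adjusted p 0.196), Cox8b at 0.03 and Cox6a2 at -0.18 (adjusted p 0.0745), all by limma. Without them 3 members instead of 5 passed between the sexes, Ndufa4 (adjusted p 0.0132), Cox6a1 (0.0169) and Ndufs4 (0.0407), by the same fit. The median over the members was -0.06 with and without them.

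Lists of 210 measured genes were counted as well, and no gene encoded in mitochondrial DNA was matched. The lists held other genes of oxidative phosphorylation, its regulators, the citrate cycle, and the mitochondrial and cytosolic ribosomes. Ribosomal genes made up most of the 210 and are described further on. Between the sexes 11 of the 210 were higher and 22 lower in females (15.7% in all). By comparison 10.5% of all probe sets passed, 13.6% of all named genes and 23.4% of named genes above the Y-linked bound. Of the 13 measured genes of ATP synthase, 2 were higher and 1 lower: Atpif1, the inhibitor of the enzyme, by 0.48 (SE 0.07, adjusted p 9.95e-06 by limma), Atp5g1, of the proton-carrying ring, by 0.25, and Atp5md by -0.21. Of the 31 assembly factors, 1 was higher, Acad9 (complex I) at 0.25, and 4 were lower, namely Cox18 at -0.28, Cox19 at -0.25, Ttc19 at -0.26 and Foxred1 at -0.20. Of the 19 electron carriers and genes of ubiquinone synthesis, 1 was higher and 4 lower. The lower ones were Coq7, a hydroxylase of ubiquinone synthesis, at -0.46 (SE 0.05, adjusted p 5.26e-08 by limma), Pdss2, which makes its side chain, at -0.33, cytochrome c (Cycs) at -0.30, and cytochrome c1 (Cyc1), a subunit of complex III outside the symbol series, at -0.14. Sqor, which passes electrons from sulfide to ubiquinone, was higher at 0.38.

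Of 15 transcriptional regulators, 2 were higher in females, Ppargc1a, the coactivator PGC-1alpha, at 0.51 (SE 0.07, adjusted p 4.23e-06 by limma) and Perm1 at 0.20. Ppargc1a read 5.86, 6.03 and 6.44 (lowest, median, highest) in female WT and between 6.08 and 6.37 in female KO. It read between 5.48 and 5.72 in male WT and between 5.40 and 5.81 in male KO, without overlap between the sexes and below the Y-linked bound of 6.96. In the citrate cycle list of 16 genes, Idh2 was higher at 0.42, and Fh1 at -0.40, Pdhx at -0.22 and Dlst at -0.15 were lower. For the loss of P2ry13, 1 of the 210 genes passed in females, where 0.0547% of all probe sets did, and 0 in males, where 0.0313% did. It was Acad9, at -0.44 (SE 0.08, adjusted p 0.0271 by limma) in females and -0.31 (SE 0.09, adjusted p 0.434) in males. It read between 8.81 and 9.08 in female WT and between 8.34 and 8.76 in female KO, without overlap. Whether this difference came from the loss of P2ry13 itself or from DNA linked to that gene was not tested.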

How the data were processed

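RNA of 23 mouse livers was amplified to biotin-labelled cRNA and read on 1-colour arrays, per the labels' protocols. The deposited table holds linear-scale intensity values for 38385 probe sets, made by the authors with RMA, per the submitters' processing notes; its version and array batches were not stated there. Groups and replicate numbers came from the sample titles. Values were converted to log2. limma 3.58.1 in R 4.3.3 (lmFit, eBayes) fitted 1 mean per group over all 23 arrays for each probe set, with 19 residual degrees of freedom, and the Benjamini-Hochberg method was applied to the p-values of all probe sets together. Errors beside differences are SEs. No floor or further scaling was applied. The fit was also run on simulated data with the spread of each probe set, where 50 probe sets were raised in female KO at each size. It called 4 of 50 at a log2 size of 0.2, 14 at 0.3, 39 at 0.5 and 50 at 1, and 7 unchanged probe sets.

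The members and lists were chosen with earlier results of these data known. Named were all passing members, and the 3 with the smallest p where fewer than 3 passed. Also named were the isoforms, the chosen subunits of complexes I to III, the members on chromosome 3, and up to 3 genes of each list. Other passing list genes are named too, after their values were seen. Marker lists for heart, white fat, male germ cells, bile duct, lymphocytes, erythroid cells and pancreas called 0, 0, 1, 1, 0, 1 and 0 genes between the sexes, brown fat 1 (Elovl3) and skeletal muscle 0. Tried besides were a cut on dim probe sets, quantile normalization, equal array medians, array weights, a variance trend, the replicate number as a block, only the compared groups, averaging the probe sets of each gene, the design text's plain analysis of variance and each array left out. Leaving out 3 arrays with muscle markers was chosen after seeing the data. Figures were drawn with matplotlib 3.10.9.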

Additional observations from a re-analysis of the deposited data

Results flagged for a closer look

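In 156 tests of the highest or lowest array of a group, 12 values stood apart from the other arrays of their group (Dixon's rule), where chance flags about 1 in 20. Cox6a2, the muscle isoform, had such an array in all 4 groups: 6.19 in female WT replicate 1 (others 5.64 to 5.80), 6.52 in female KO replicate 6 (others 5.54 to 5.78), 6.22 in male WT replicate 5 (others 5.88 to 5.95) and 6.14 in male KO replicate 5 (others 5.64 to 5.81). The first pair also read high for skeletal muscle actin, as given above, while the male pair read 6.08 and 5.79 for it. Cox8b was low in female WT replicate 5, at 5.10 (others 5.60 to 5.80), and Cox6b2 in female WT replicate 2, at 4.25 (others 4.38 to 4.39); both probe sets read in the range possible without a transcript.

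Ndufa4 read 11.55 in male KO replicate 4, above the other male KO arrays at 11.35 to 11.42. Female KO replicate 2 was high for Ndufa5, at 7.45 (others 7.32 to 7.36), and for Ndufb3, at 9.51 (others 9.14 to 9.28). Ndufb3 was low in male KO replicate 3, at 9.14 (others 9.27 to 9.32), and Ndufv1 in female WT replicate 6, at 10.83 (others 10.87 to 10.89). The gene-centred mean of complex IV was 0.15 in male WT replicate 2, against 0.02 to 0.04 in the other male WT arrays.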

How the results depend on the processing

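The count of 0 members for KO against WT, in females, in males, on average and for the difference between the sexes, stayed at 0 in every alternative run. Between the sexes on average, 5 members passed; 2 did with equal array medians, 8 in the plain analysis of variance after Benjamini-Hochberg, 0 in it at an unadjusted p with a change over 20%, and 3 without the 3 arrays with muscle markers. The 1 member within WT became 4 among probe sets above the median level and with the variance trend, 3 after quantile normalization, and 0 with equal medians, with only the compared groups and without the muscle arrays. The 1 within KO became 2 after quantile normalization and 0 with equal medians, only the compared groups, the plain analysis after adjustment and without the muscle arrays. The 1 of the F test became 2 with the filter, with the trend and in the plain unadjusted analysis, 3 after quantile normalization and in the plain adjusted analysis, and 0 with equal medians and without the muscle arrays. The causes were not tested. The 33 list genes passing between the sexes became 14 at an unadjusted p with a change over 20%. Leaving out 1 array at a time gave 3 to 6 members between the sexes on average, 0 to 2 within WT, 0 to 1 within KO and in the F test, and 28 to 36 list genes.

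With the replicate number as a block, 4 members passed between the sexes on average and 0 within WT, within KO and in the F test. The numbers share no stated source: same-numbered arrays of different groups correlated at -0.17 to 0.21 (median -0.02), and 3 of 33 pairs exceeded 0.1. The medians of the complexes moved by less than the spread between arrays in all alternatives, though several KO medians moved by over 1.5 times or changed sign, as given above. No called difference changed its direction. No scanner background was given, so the reading of Y-linked probe sets is the one bound on dim members, and arrays of 5 or 6 animals a group limit what small changes can be seen.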

Other observations

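The mitochondrial ribosome, which translates the subunits encoded in mitochondrial DNA, was measured through 69 genes. Between the sexes 2 were higher in females, Mrps26 at 0.25 and Mrpl50 at 0.17, and 5 lower, with Mrpl20 at -0.31 and Mrpl34 at -0.27 farthest from 0 on the log2 scale. The cytosolic ribosome, of 47 genes, likewise had 2 higher, Rpl9 and Rps20, both at 0.21, and 5 lower, with Rps26 at -0.37 and Rpl36al at -0.26. Over all probe sets 10.5% passed, 5.96% as higher and 4.55% as lower, and of all named genes 13.6% passed. The median log2 difference was -0.03 over the mitochondrial and -0.02 over the cytosolic list, against -0.01 over all named genes.

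For the loss of P2ry13 in males, no gene of either ribosome list or of ATP synthase passed. All 13 ATP synthase genes were negative, KO minus WT, with a median of -0.09 and a range from -0.27 to -0.02, as were 58 of 69 mitochondrial and 28 of 47 cytosolic ribosomal genes, with medians of -0.06 and -0.03. Over all named genes 52.9% were negative in males and 49.4% in females, and 48.0% and 33.5% of those above the Y-linked bound. In females 7 of 13, 15 of 69 and 26 of 47 were negative, with medians of -0.01, 0.03 and -0.01. In the citrate cycle list 13 of 16 genes were negative in males and 1 of 16 in females, with medians of -0.05 and 0.10, and none passed. Genes of a list were read on the same arrays, so these counts are not independent. Directions of the members moved with scaling and single arrays, as given above, and that dependence is not given for these lists.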
